A study of Rattus norvegicus with 24 samples.

Results

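Vasopressin and oxytocin are the 2 nonapeptide hormones of the magnocellular neurosecretory system, and the genes described here are Avp and Oxt, which encode their precursors, and Oxtr, Avpr1a and Avpr1b, which encode receptors for them. These 5 genes were taken by gene symbol from a table of 35032 rat genes. The table held counts of mRNA-seq reads in 24 libraries from 2 brain regions, the hypothalamic paraventricular nucleus (PVN) and, in the forebrain, the central amygdala (CEA), with 3 libraries in each of 8 groups. The rats were male Sprague-Dawley animals, bought at 7 weeks of age. NC rats were unoperated controls, HT rats had a partial hepatectomy that removed about 20% of the left liver lobe, EA rats had the operation with electroacupuncture the day before and right after it, and SEA rats had the operation with needles inserted at the same points and left unconnected. All 4 groups, NC and HT included, were held awake in a restraint device for the same sessions, and tissue was taken a day after the last treatment. Because NC rats had no sham operation, the liver resection, the anaesthesia and the abdominal incision cannot be told apart in a comparison with NC.

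Vasopressin regulates water reabsorption in the kidney and vascular tone, and it acts on the pituitary together with corticotropin-releasing hormone in the stress response. Oxytocin drives milk ejection and uterine contraction and acts in the brain on social behaviour, fear and pain. Both peptides are made as prohormones with a neurophysin carrier domain in separate magnocellular neurons of the PVN and supraoptic nucleus, stored in dense-core granules and released from the posterior pituitary, while parvocellular neurons and axon collaterals carry them to other brain areas. The central amygdala is one of these targets and expresses Oxtr and Avpr1a, whose proteins signal through the Gq class of G proteins. Avpr1b is best known from the corticotrophs of the anterior pituitary and from hippocampal area CA2.

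Avp and Oxt are neighbours. In the coordinates of the table, whose genome build was not settled from the files, Oxt (ENSRNOG00000021225) lay at chr3:123106694-123107534 on the plus strand. Avp (ENSRNOG00000021229) lay at chr3:123117492-123119460 on the minus strand. The genes thus stood tail to tail with 9957 bases between them and 0 annotated genes overlapping that gap. Oxtr (ENSRNOG00000005806, chr4:144403358-144416116), Avpr1a (ENSRNOG00000004400, chr7:67341080-67345308) and Avpr1b (ENSRNOG00000049261, chr13:48390417-48400632) were all on the minus strand of other chromosomes. The neurophysin-coding parts of Avp and Oxt are nearly identical, so reads from that part may be shared between both genes, and how reads with several matches were counted was not given in the sources used here.

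The proximal promoters of both peptide genes are shown because the genes are neighbours whose levels varied together across libraries (below). Each is the 250 bases before the start of the gene, from RefSeq on the build GRCr8, read 5′ to 3′ on the strand of the gene. Oxt came from chr3:138235504-138235753 (plus strand) and Avp from chr3:138248523-138248772 (minus strand), and capitals mark TGACC or its complement GGTCA, the half-site letters of nuclear hormone receptors, and CACGTG, the letters of an E-box.
Oxt: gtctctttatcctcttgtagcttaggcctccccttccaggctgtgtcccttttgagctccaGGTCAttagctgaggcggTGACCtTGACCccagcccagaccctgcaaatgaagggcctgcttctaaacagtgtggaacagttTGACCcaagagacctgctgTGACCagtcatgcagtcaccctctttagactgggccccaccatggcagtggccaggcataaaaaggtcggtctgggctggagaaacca
Avp: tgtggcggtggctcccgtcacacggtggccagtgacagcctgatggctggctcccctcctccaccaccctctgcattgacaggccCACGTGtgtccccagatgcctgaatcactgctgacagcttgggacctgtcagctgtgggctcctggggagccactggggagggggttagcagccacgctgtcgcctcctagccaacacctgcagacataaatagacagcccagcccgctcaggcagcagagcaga

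The letters of the promoters differed. The Oxt sequence held 5 matches to TGACC, 4 on its own strand and 1 on the other, while the Avp sequence held 0. Of 33469 promoters of this length, 35.4% held at least 1 TGACC on either strand and 0.263% held 4 or more. CACGTG occurred 1 time in the Avp sequence and 0 times in that of Oxt, and 5.59% of all promoters held it. Of the other letters searched on both strands, TGACG (held by 18.2% of promoters) matched 1 time in Avp, on the opposite strand, and TGACGTCA and TATAAA matched neither sequence. A match is a run of letters, not a measured binding site.

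Library depth ranged from 13152772 to 18607032 counts, a ratio of 1.41. Levels are given in CPM, the read count of a gene scaled to a common library size by edgeR with TMM library sizes. The labels name the tissue only as brain, with the region in the sample titles, so the regions were checked against marker genes. Otp and Sim1, transcription factors of the neuroendocrine hypothalamus, averaged 27.2 and 13.3 CPM in the PVN libraries and 0.613 and 0.339 CPM in the CEA libraries. The summed level of 7 central amygdala markers was 2648 to 6283 CPM in the CEA and 477 to 582 CPM in the PVN. Most of that sum came from Ppp1r1b (mean of 2146 CPM in the CEA) and Scn4b (954 CPM), which the striatum also expresses, while Nts was lower in the CEA (14.5 against 28.1 CPM) and Calcrl hardly differed (28.0 against 22.0 CPM), so the sum does not separate central amygdala from striatum. The CEA libraries also held striatal markers at 1802 to 5524 CPM, against 130 to 242 CPM in the PVN, and choroid plexus markers that ran from 7.05 to 1791 CPM, highest in CEA SEA replicate 2. In PVN and CEA respectively, the summed ranges were 267 to 681 and 160 to 301 CPM for the PVN and neuroendocrine list, 20.2 to 31.8 and 3.20 to 76.5 CPM for the suprachiasmatic list, 332 to 780 and 91.9 to 1231 CPM for the thalamic list, and 353 to 503 and 736 to 1734 CPM for the hippocampal CA2 list. They were 18.6 to 76.5 and 4.31 to 10.2 CPM for the pituitary list, with prolactin at 0 in every library, and 11.4 to 33.2 and 36.2 to 360 CPM for the list of cortex and lateral or basal amygdala. Single genes made up most of some sums. These were Pcp4 for CA2 and Vip for the suprachiasmatic list in the CEA (1094 and 31.3 CPM), and Pomc for the pituitary list in the PVN (42.4 CPM). In the CA2 list, Rgs14 was higher in the CEA (47.5 against 13.7 CPM) and Amigo2 lower (24.1 against 56.1 CPM). Six6 (0.0305 against 4.80 CPM) and Lhx1 (0.370 against 7.62 CPM) were lower too. These sums alone do not show that such tissue was present.

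Both peptide transcripts were abundant in the PVN. Per kilobase of gene length, Oxt ranked 24 and Avp ranked 80 among 22250 protein-coding genes, with means of 1022 and 497 CPM per kb over the 12 PVN libraries. The receptors were low on the same scale: Avpr1a ranked 11264 with 2.72 CPM per kb and Oxtr ranked 12105 with 1.84 CPM per kb. In the CEA the ranks were 905 for Oxt, 1820 for Avp, 13505 for Avpr1a and 13887 for Oxtr. Avpr1b had 0 counts in all 24 libraries, which leaves room for at most 3 counts per library, a level between 0.158 and 0.236 CPM. It did not pass the filter on low counts and entered no test. A second row, LOC100909648 (ENSRNOG00000048522, chr13:48367307-48378831, plus strand), whose gene number RefSeq lists under the symbol Avpr1b, held 7 counts in all, between 0 and 2 in each PVN library and 0 in every CEA library. Whether reads match both rows was not tested, and Avpr1b was not detectable as counted here.

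**Figure D1:**
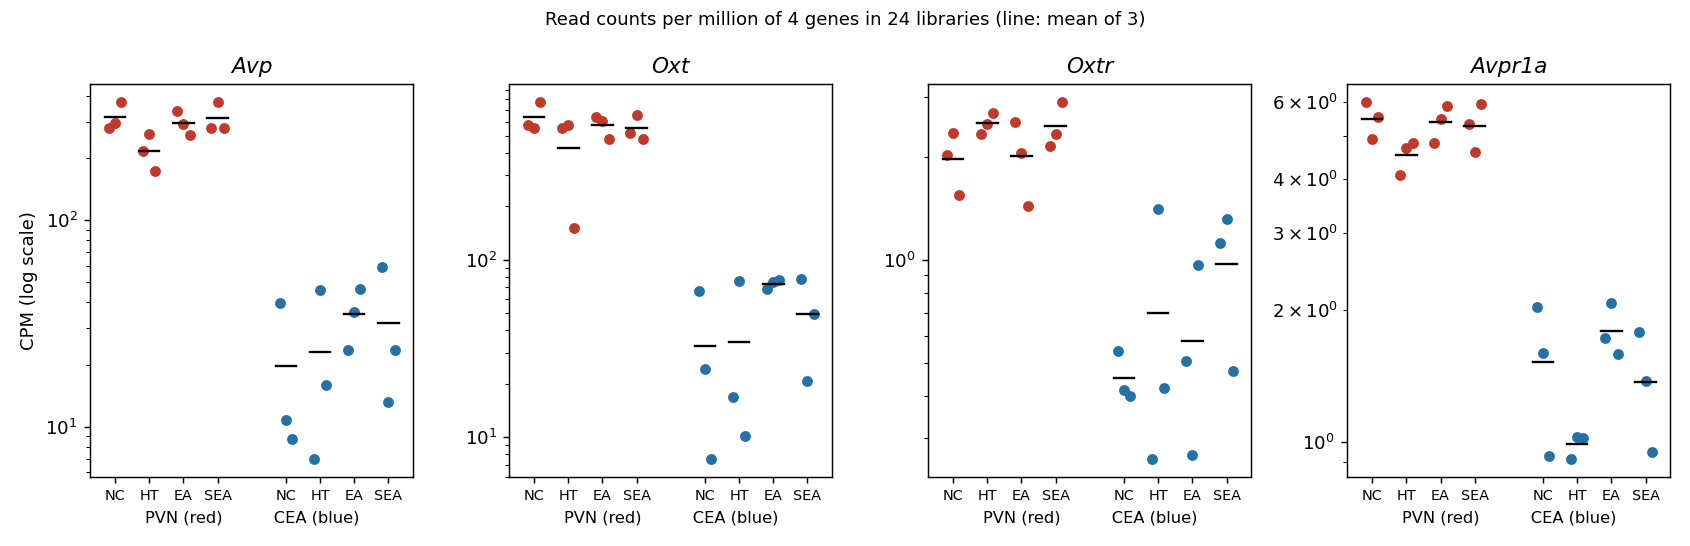
Level of Avp, Oxt, Oxtr and Avpr1a in CPM on a log scale (vertical axis) in each of 24 libraries, by treatment group (horizontal axis; PVN in red, CEA in blue), with 1 point per library and a line at the mean of 3. Every PVN point lies above every CEA point for Avp, Oxt and Avpr1a, as was true of 7.87% of all genes. The Oxtr points do so by a narrow margin (1.44 against 1.41 CPM), for a gene that entered through its PVN counts. The Oxt point of PVN HT replicate 3, at 149.98 CPM, lies well below the other 11 PVN libraries.

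The first comparison asked how the members differed between the regions. Avp, Oxt and Avpr1a, the members that passed the filter on low counts in both regions, were lower in the CEA than in the PVN. Over all treatments, 3 of 3 were called lower by edgeR's quasi-likelihood test (adjusted p under 0.05), where 29.4% of the 17768 genes tested were called lower and 56.3% were called in either direction. For 3 of 3, every CEA library was below every PVN library, as was true of 7.87% of all genes. Oxtr, which failed the filter in some fits of the CEA alone, entered the region test through its PVN counts, so a lower level in the CEA was built into its entry and it is given as values outside this count. In these bulk samples, fewer cells of a type and less RNA per cell cannot be told apart.

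Oxt, the precursor of oxytocin and its neurophysin, had 577.7, 554 and 778 CPM in the PVN NC replicates 1 to 3 and 66.7, 24.2 and 7.56 CPM in the CEA NC replicates. The groups were far apart, and within the CEA the libraries themselves ran over a wide range. Oxt was 11.99-fold higher in the PVN over all treatments (log2 difference, CEA minus PVN, -3.58, SE 0.35, edgeR adjusted p = 8.057e-09). Within NC rats the log2 difference was -4.28 (SE 0.71, edgeR adjusted p = 0.005725), and it was -5.32 without CEA NC replicate 1, the highest of the 3. Avp had 279, 296 and 376 CPM in the PVN NC replicates and 39.9, 10.8 and 8.68 CPM in the CEA NC replicates, so CEA NC replicate 1 again stood above the other two. Avp was 10.5-fold higher in the PVN over all treatments (log2 difference -3.40, SE 0.30, edgeR adjusted p = 1.121e-09). Within NC rats the log2 difference was -4.00 (SE 0.58, edgeR adjusted p = 0.00358), and -5.02 without CEA NC replicate 1.

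The receptor transcripts differed less in fold than the peptide transcripts, although this contrast between genes was not tested. Avpr1a, the vasopressin receptor of vessels, liver and brain, had 6.01, 4.93 and 5.53 CPM in the PVN NC replicates and 2.04, 1.60 and 0.928 CPM in the CEA NC replicates. The NC groups did not overlap, as was true in this direction of 23.8% of genes in NC. Avpr1a was 3.68-fold higher in the PVN over all treatments (log2 difference -1.88, SE 0.12, edgeR adjusted p = 8.497e-12). Oxtr, the only known oxytocin receptor, had 2.02, 2.36 and 1.55 CPM in the PVN NC replicates and 0.540, 0.414 and 0.398 CPM in the CEA NC replicates, which rest on 6 to 9 counts each. In the fit described above, Oxtr was 3.34-fold higher in the PVN over all treatments (log2 difference -1.74, SE 0.23). Its regions came close to each other, at 1.44 CPM in the lowest PVN library (PVN EA replicate 3) and 1.41 CPM in the highest CEA library (CEA HT replicate 2). Within NC rats, Avp, Oxt and Avpr1a, 3 of 3, were called lower, against 13.7% of the 16748 genes tested, with a log2 difference of -1.84 for Avpr1a (SE 0.31). That of Oxtr was -2.11 (SE 0.33), with the same limit as above. The 8 groups were also ordered by mean level. For Avp, Oxt and Avpr1a, only the step from the lowest PVN group to the highest CEA group had no overlap between neighbours. The region gap itself, with every CEA library below every PVN library, was found in 7.87% of all genes. Oxtr had the same single gap, given as a value with the limit above.

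Other genes of the system were followed through 5 lists with 41 genes, 40 of which were tested between the regions. Of these, 3 (Otp, Sim1 and Esr2) did not pass the filter in every fit of the CEA alone and entered through their PVN counts, as Oxtr did, so they stand outside the counts. Of the other 37, over all treatments 17 were lower and 8 higher in the CEA, with a median log2 difference of -0.28 beside -0.01 for all genes. Each count of these lists stands against 29.4% of all genes called lower, 26.9% called higher and 56.3% called in either direction, and nothing is read from it about the list. Of 5 regulators of the peptide genes, 4 were lower and 0 higher. The levels of Otp and Sim1, which are needed for these neurons to form, were 44.1-fold and 39.5-fold higher in the PVN, given as values with no count or test. Caprin2, an RNA-binding protein that binds Avp mRNA, was 2.08-fold higher in the PVN. Of 7 peptides and enzymes found in the same neurons, 5 were lower and 2 higher in the CEA, and galanin (Gal, 14.3-fold), Cartpt (11.97-fold) and corticotropin-releasing hormone (Crh, 5.41-fold) were higher in the PVN. Of 9 tested genes for prohormone processing and granules, 5 were lower and 1 higher. These included the prohormone convertase Pcsk1 (4.57-fold higher in the PVN), the granin Scg2 (3.90-fold) and the amidating enzyme Pam (2.14-fold).

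Among 3 genes for release and breakdown, the granule-priming factor Cadps2 was 3.88-fold and Cd38, which is needed for oxytocin release, 1.91-fold higher in the PVN. Lnpep, the aminopeptidase that degrades oxytocin, had a log2 difference of -0.65 (SE 0.40) that did not pass (edgeR adjusted p = 0.1769). Of the 13 genes of receptor signalling, 5 were higher and 1 was lower in the CEA and 7 did not pass, where 26.9% of all genes were called higher. The inositol trisphosphate receptor Itpr1 was 4.51-fold and the protein kinase C gene Prkcb 2.94-fold higher in the CEA, whereas the arrestin Arrb2 was 1.63-fold higher in the PVN. Striatal markers, which moved with region as given above, were higher in the same CEA libraries, and their part in these differences was not tested.

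**Figure D2:**
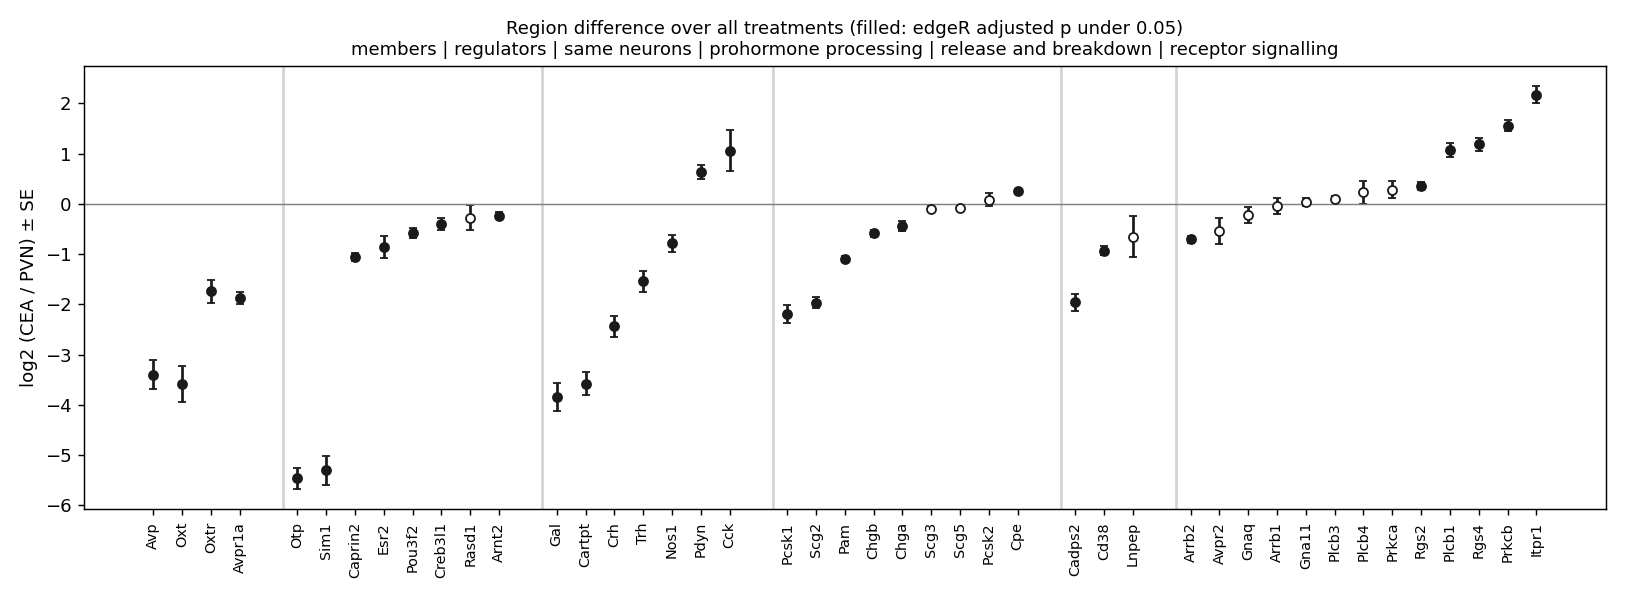
Log2 difference between CEA and PVN over all treatments with its standard error (vertical axis) for 4 members and 40 genes in 5 lists (horizontal axis). Filled points have an edgeR adjusted p under 0.05. Oxtr, Otp, Sim1 and Esr2 entered through their PVN counts, so their filled points are shown as values and stand for no call. Avp and Oxt lie near -3.40 and -3.58, Otp and Sim1 lie lower, and 5 genes of receptor signalling are among the filled points above 0.

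Oxt and Avp varied together within each region. Avp ran from 2899 to 6799 counts and Oxt from 2514 to 14082 counts across the 12 PVN libraries, and the coefficients of variation of the CPM were 20.5% and 27.4%. In the CEA they ran from 107 to 897 and from 114 to 1360 counts, with coefficients of variation of 63.5% and 61.4%. The PVN levels were thus steadier than those of the CEA. Across the 12 CEA libraries, the log2 levels of Avp and Oxt had Pearson's r = 0.868 and Spearman's rho = 0.916 (permutation p = 4e-04 and 1e-04, adjusted 0.00572 and 0.0022 over 22 relations). Without the 2 libraries farthest from the median, r was 0.826. Across the 12 PVN libraries, r was 0.829 and rho 0.783 (permutation p = 0.00052 and 0.00348, adjusted 0.00572 and 0.0383), and r was 0.585 when PVN NC replicate 3 and PVN HT replicate 3 were left out. The points pool 4 treatments of 3 libraries each, too few for a value within a treatment.

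The ratio of Oxt to Avp counts was above 1 in 11 of 12 PVN libraries and in 10 of 12 CEA libraries. Its median was 1.88 in the PVN and 1.67 in the CEA. PVN HT replicate 3 had a ratio of 0.867, next to 1.70 in the second lowest and 2.55 in the highest PVN library, which was PVN HT replicate 1. PVN HT replicate 3 also had the lowest Crh of the PVN libraries, at 4.30 CPM, and the lowest summed PVN markers, at 267 CPM. It had the highest summed striatal and central amygdala markers of the PVN, at 242 and 582 CPM. Both of those sums hold Ppp1r1b (PVN mean of 109 CPM, with 183 CPM in its highest PVN library), so they are not separate measures. It makes up most of the striatal sum, while the central amygdala sum also holds Penk (PVN mean of 180 CPM). The part of tissue composition in the low Oxt of this library was not tested, and the values of Avp and Oxt without it are given beside the PVN comparisons that include HT.

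**Figure D3:**
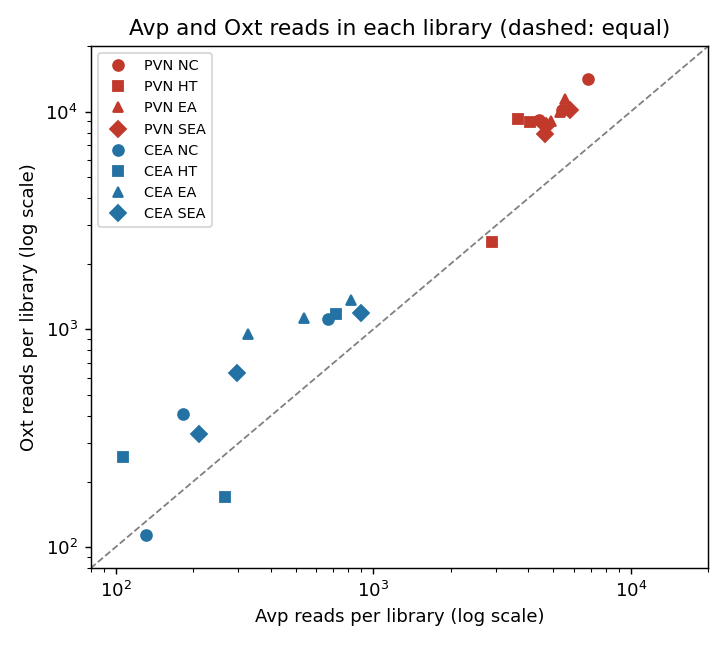
Counts of Oxt (vertical axis) against counts of Avp (horizontal axis), both on log scales, with 1 point per library, coloured by region (PVN red, CEA blue) and shaped by treatment, and a dashed line of equal counts. The PVN libraries have at least 2899 Avp and 2514 Oxt counts, with PVN HT replicate 3 alone among them below the line, while the CEA libraries spread from about 100 counts upward.

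In the CEA, the summed Avp and Oxt level was compared with that of Crh, a gene of neighbouring PVN neurons and of the central amygdala itself. Across the 12 CEA libraries r was 0.661 and rho 0.762 (permutation p = 0.0221 and 0.00548, adjusted 0.0975 and 0.0402), and r was 0.726 without the 2 farthest libraries. With the summed PVN and neuroendocrine markers, r was 0.656 and rho 0.685 in the CEA (permutation p = 0.0203 and 0.0164, adjusted 0.0975 and 0.0903), a relation that did not pass the correction. That sum is mostly Sst in the CEA (mean of 169.6 CPM), a gene that amygdala neurons also express, with Otp and Sim1 at 0.613 and 0.339 CPM. Across the 12 PVN libraries the relation to Crh had r = 0.849 and rho = 0.629 (permutation p = 0.00406 and 0.0326, adjusted 0.0298 and 0.144). Leaving out PVN NC replicate 3 with PVN HT replicate 3 gave r = 0.261, so the relation rests on those libraries. No other marker list passed the correction in either region.

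The second question was whether the operation altered the members. In the PVN, 0 of the 4 tested members were called between HT and NC by edgeR's quasi-likelihood test, where 0.0120% of 16727 genes were called, and 1 of 4 had an unadjusted p under 0.05, where 11.0% of genes did. DESeq2 called 28 genes and 0 members. Avp had 217, 260.2 and 173 CPM in the HT replicates against 279, 296 and 376 CPM in NC. All 3 HT libraries were below all 3 NC libraries, as were those of 8.23% of genes. The log2 difference of Avp was -0.55 (SE 0.17, unadjusted p = 0.01262, edgeR adjusted p = 0.4175), and -0.41 without PVN HT replicate 3. Over the alternatives its adjusted p ran from 0.05614 to 0.8009. The summed PVN and neuroendocrine markers, mostly Sst and Trh with PVN means of 268 and 97.7 CPM, were at 267 to 350.4 CPM in HT against 379 to 681 CPM in NC. Of the same list, Sim1 had a log2 difference of 0.097 (SE 0.20) and Otp of -0.19 (SE 0.11). Crh separated the groups in the direction of Avp, at 4.30 to 7.45 against 8.06 to 12.4 CPM. Choroid plexus markers were at 10.5 to 11.7 CPM in HT against 13.9 to 17.98 CPM in NC, and those of cortex and lateral or basal amygdala at 27.9 to 30.7 against 11.4 to 26.6 CPM, again with no overlap. The lists of thalamus, suprachiasmatic nucleus, hippocampal CA2, pituitary, central amygdala and striatum overlapped between HT and NC. The part of these markers in the PVN values was not tested.

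Oxt in the PVN had 554, 575 and 149.98 CPM in the HT replicates. Replicate 2 lay within the NC range of 554 to 778 CPM, replicate 1 lay just under its lower end, and replicate 3 lay far below it. The log2 difference between HT and NC was -0.58 (SE 0.44, edgeR adjusted p = 0.5277), and it was -0.18 without PVN HT replicate 3. Avpr1a had 4.07, 4.69 and 4.83 CPM in HT, all below its NC values as for the 8.23% of genes above, with a log2 difference of -0.28 (SE 0.18, edgeR adjusted p = 0.482), and -0.33 without PVN HT replicate 3. Oxtr had 2.33, 2.51 and 2.68 CPM in HT, which overlapped NC, with a log2 difference of 0.34 (SE 0.25, edgeR adjusted p = 0.518), which was 0.29 without PVN HT replicate 3. Leaving out PVN NC replicate 3 instead gave 0.18.

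When the 3 operated groups of the PVN were set against NC together, the log2 differences were -0.22 for Avp, -0.32 for Oxt, 0.22 for Oxtr and -0.12 for Avpr1a, with edgeR adjusted p from 0.292 to 0.5536. Without PVN HT replicate 3 they were -0.18 for Avp, -0.18 for Oxt, 0.21 for Oxtr and -0.14 for Avpr1a, and without PVN NC replicate 3 they were -0.080 for Avp, -0.14 for Oxt and 0.078 for Oxtr. For Avpr1a the value was -0.051 without PVN NC replicate 1, and leaving out PVN NC replicate 2 gave -0.19. Again 0 of 4 members were called, where edgeR called 0.0639% of 17211 genes, 29.8% had an unadjusted p under 0.05, and DESeq2 called 2392 genes, none of them a member. Of the 41 listed genes of the system, 40 were tested in the PVN comparisons and 38 or 39 in those of the CEA, and 0 were called by edgeR in any treatment comparison. In the PVN, 10 of the 40 had an unadjusted p under 0.05 for HT with NC (11.0% of all genes) and 23 of the 40 for the operated groups with NC (29.8%). It was 9 of the 40 for EA with HT (5.67% of all genes), 4 for SEA with HT (4.38%) and 4 for EA with SEA (5.21%). In each CEA comparison 1 or 2 listed genes had such a p (1.99% to 3.75% of all genes).

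The third question was whether electroacupuncture altered the members after the operation. These comparisons use the same HT libraries as the one above, so a value that is low in HT appears in both. In the PVN, 0 of 4 members were called between EA and HT, where 0.0961% of 16641 genes were called, 5.67% had an unadjusted p under 0.05, and DESeq2 called 91 genes and 0 members. Avp had 337, 294 and 260.1 CPM in the EA replicates, against 173 to 260.2 CPM in HT, so the groups touched at the margin. The log2 difference of Avp, EA minus HT, was 0.46 (SE 0.14, unadjusted p = 0.01204, edgeR adjusted p = 0.64), and 0.32 without PVN HT replicate 3. The summed PVN and neuroendocrine markers were 423 to 454 CPM in EA, above all HT libraries, with log2 differences of 0.083 for Sim1 (SE 0.17) and 0.094 for Otp (SE 0.089). Crh, at 9.17 to 10.1 CPM in EA, was above all HT libraries, whose highest value was 7.45 CPM. Choroid plexus markers were 14.6 to 16.7 CPM, also above HT, while the marker lists not named here overlapped between EA and HT. The part of these markers and of Crh in the Avp difference was not tested. Oxt had 635, 601 and 481 CPM in EA, with a log2 difference of 0.43 (SE 0.40, edgeR adjusted p = 0.9706) that was 0.025 without PVN HT replicate 3. Oxtr had a log2 difference of -0.32 (SE 0.26) and Avpr1a of 0.25 (SE 0.16), with edgeR adjusted p of 0.9642 and 0.9226. Without PVN HT replicate 3 these were -0.27 and 0.30, and the Oxtr value was -0.53 without PVN EA replicate 1, while leaving out PVN EA replicate 3 gave -0.13.

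The sham needling group was compared in the same way. Between SEA and HT in the PVN, edgeR called 0 members and 0% of 16634 genes, 4.38% of genes had an unadjusted p under 0.05, and DESeq2 called 21 genes and 0 members. Avp had 281, 375 and 280.4 CPM in the SEA replicates, all above the HT libraries, as was true of 5.10% of genes. The log2 difference of Avp was 0.53 (SE 0.16, unadjusted p = 0.009681, edgeR adjusted p = 0.9815), and 0.39 without PVN HT replicate 3. The summed PVN and neuroendocrine markers were 380.1 to 406 CPM in SEA against 267 to 350.4 CPM in HT, with no overlap, with log2 differences of 0.12 for Sim1 (SE 0.14) and 0.15 for Otp (SE 0.093). Crh was at 7.69 to 8.62 CPM in SEA, above the HT libraries. Choroid plexus markers (12.9 to 15.0 against 10.5 to 11.7 CPM) and central amygdala markers (477 to 506 against 507 to 582 CPM) separated the groups too. The marker lists not named here overlapped between SEA and HT. The part of these markers and of Crh in the Avp difference was not tested. Oxt had 515, 655 and 476 CPM in SEA, with a log2 difference of 0.37 (SE 0.41) that was -0.04 without PVN HT replicate 3. Between EA and SEA directly, the log2 differences were -0.07 for Avp (SE 0.13), 0.06 for Oxt (SE 0.13), -0.30 for Oxtr (SE 0.27) and 0.03 for Avpr1a (SE 0.17). The Oxtr value was -0.50 without PVN EA replicate 1, while leaving out PVN EA replicate 3 gave -0.099. In this comparison edgeR called 0 members and 0% of 16606 genes, 5.21% had an unadjusted p under 0.05, and DESeq2 called 24 genes and 0 members.

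**Figure D4:**
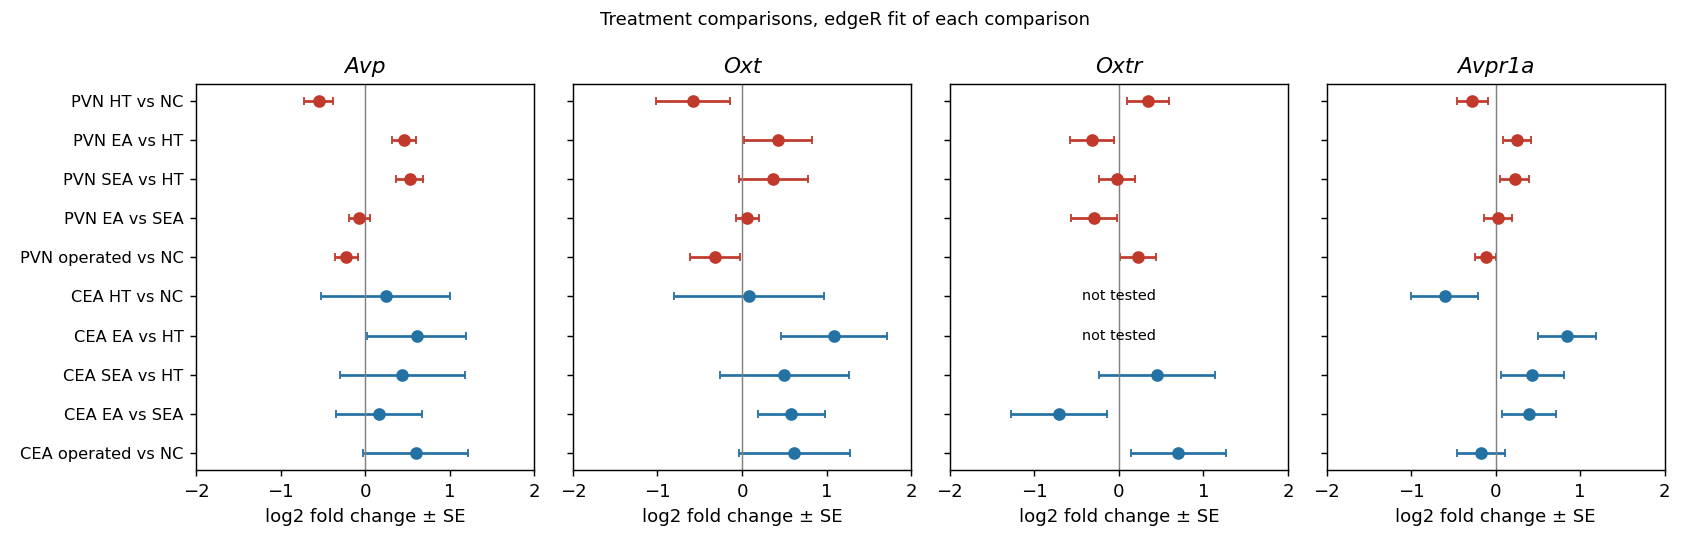
Log2 fold change with its standard error (horizontal axis) of Avp, Oxt, Oxtr and Avpr1a in 5 treatment comparisons of the PVN (red) and 5 of the CEA (blue), each from its own edgeR fit, and comparisons in which Oxtr did not pass the filter are marked as not tested. None of the points has an edgeR adjusted p under 0.05, and the Avp error bars are wider in the CEA (standard errors of 0.51 to 0.76) than in the PVN (0.13 to 0.17).

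In the CEA the same comparisons rested on lower counts and a wider spread. Oxt had 16.9, 75.5 and 10.2 CPM in the HT replicates and 68.2, 75.0 and 77.1 CPM in the EA replicates. The EA libraries lay close together with an SD of 4.68 CPM, and CEA HT replicate 2 lay among them while the other HT libraries were far below. For their co-expression network the authors left out 1 CEA EA set as too different, and all 3 are used here. The log2 difference of Oxt, EA minus HT, was 1.09 (SE 0.63, edgeR adjusted p = 0.9295), and without CEA HT replicate 2 it was 2.43 (edgeR adjusted p = 0.1073). Leaving out CEA HT replicate 3 gave 0.66, and leaving out CEA HT replicate 1 gave 0.77. Avp had 6.98, 46.0 and 15.9 CPM in HT and 23.5, 36.0 and 46.5 CPM in EA, with a log2 difference of 0.61 (SE 0.58). CEA HT replicate 2 was again the highest of its group, and the Avp difference was 1.61 without it and 0.18 without CEA HT replicate 1.

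Avpr1a was the only member that separated EA from HT in the CEA, with 1.73, 2.07 and 1.59 CPM in EA and 0.914, 1.02 and 1.02 CPM in HT. All 3 EA libraries were above all 3 HT libraries, as was true of 5.54% of genes, on 24 to 31 counts against 14 to 17. The log2 difference was 0.84 (SE 0.34, unadjusted p = 0.03874, edgeR adjusted p = 0.9295). Over its alternatives the adjusted p ran from 0.2756 to 0.9994. Some marker sums separated the same libraries without overlap. That of the central amygdala was at 2834 to 3902 CPM in EA against 4426 to 6283 CPM in HT. That of the striatum was at 1906 to 3153 against 3263 to 5524 CPM, and that of hippocampal CA2 at 736 to 1064 against 1077 to 1734 CPM. The CA2 sum is mostly Pcp4, and the central amygdala and striatal sums share Ppp1r1b. The remaining marker lists overlapped between EA and HT. Crh separated the same libraries in the direction of Avpr1a, at 2.16 to 2.78 CPM in EA against 0.588 to 1.22 CPM in HT. The part of these markers and of Crh in the Avpr1a difference was not tested. Of the 3 members tested, 0 were called, and edgeR called 0% of 16479 genes, with 3.19% at an unadjusted p under 0.05 and 5 genes called by DESeq2, none a member.

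Between HT and NC in the CEA the log2 differences were 0.24 for Avp (SE 0.76), 0.08 for Oxt (SE 0.89) and -0.60 for Avpr1a (SE 0.39). Here 0 of 3 tested members and 0% of 16413 genes were called by edgeR, 3.75% of genes had an unadjusted p under 0.05, and DESeq2 called 24 genes and 0 members. Oxtr, at 4 to 22 counts per CEA library, did not pass the filter in this comparison or in that of EA with HT. Its mean CEA level was lowest in NC (0.451 CPM), followed by EA (0.578 CPM), HT (0.697 CPM) and SEA (0.970 CPM). Between SEA and HT the log2 differences of the 4 members were 0.44 to 0.50, but with single libraries left out those of Oxt ran from 0.0077 (without CEA SEA replicate 1) to 1.83 (without CEA HT replicate 2), those of Oxtr from 0.082 (without CEA HT replicate 1) to 1.46 (without CEA HT replicate 2) and those of Avp from -0.36 to 1.44 (without the same libraries as Oxt). The Avpr1a value was 0.20 without CEA SEA replicate 1. Between EA and SEA the log2 differences ran from -0.71 for Oxtr to 0.58 for Oxt. The Oxtr value became -1.31 without CEA EA replicate 3 and -0.38 without CEA EA replicate 2, and that of Oxt 1.08 without CEA SEA replicate 1 and 0.22 without CEA SEA replicate 2. With the 3 operated groups together against NC they ran from -0.17 for Avpr1a to 0.70 for Oxtr. Those of Avp and Oxt became 1.60 and 1.64 without CEA NC replicate 1, and 0.24 and 0.15 without CEA NC replicate 3. The Oxtr value became 0.37 without CEA HT replicate 2. In these 3 comparisons 0 of 4 members were called by edgeR or DESeq2. Of all genes, edgeR called 0%, with 3.07%, 1.99% and 2.82% at an unadjusted p under 0.05, and DESeq2 called 3, 5 and 11.

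Whether the effect of the operation or of electroacupuncture differed between the regions was tested directly as an interaction. For HT against NC, the effect in the PVN minus that in the CEA was -0.76 for Avp (SE 0.87), -0.64 for Oxt (SE 1.12), -0.27 for Oxtr (SE 0.68) and 0.35 for Avpr1a (SE 0.38) on the log2 scale, with edgeR adjusted p from 0.6774 to 0.8669. The Avpr1a value was 0.084 when CEA NC replicate 1 was left out, and leaving out CEA NC replicate 3 gave 0.60. For EA against HT it was -0.15 for Avp (SE 0.67), -0.65 for Oxt (SE 0.86), -0.06 for Oxtr (SE 0.80) and -0.58 for Avpr1a (SE 0.30), with edgeR adjusted p from 0.9447 to 0.9993. Here the Oxt value ran from -1.99 (without CEA HT replicate 2) to -0.22 (without CEA HT replicate 3). In both, edgeR called 0 of 4 members and 0% of genes, with 12.1% and 4.52% of genes at an unadjusted p under 0.05. Of the 40 listed genes tested, 7 and 5 had such a p. DESeq2 called 1 gene and 49 genes, none a member.

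As a description of likeness, the log2 CPM of each member was correlated with that of 15787 genes over the 12 PVN libraries. Depth and tissue composition differ between these libraries and are common to all genes of a library. Oxt was most like a gene whose symbol the table gives as the date 11-Mar (ENSRNOG00000024461, r = 0.945), Cyth4 (0.918) and Calr3 (0.906). Without PVN HT replicate 3 these were 0.718, 0.703 and 0.582. Avp was most like Snapc2 (0.867), Msto1 (0.85) and Sdcbp (0.85), and Oxt came at rank 6 for Avp while Avp came at rank 26 for Oxt (0.826). Oxtr was most like Scube2 (0.894), Kif15 (0.885) and Ece1 (0.87). Avpr1a was most like Wdr41 (0.895), Harbi1 (0.888) and Smad6 (0.87).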

How the data were processed

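The authors prepared strand-specific mRNA libraries from PVN and CEA tissue, mapped cleaned reads with HISAT2 and counted them per gene with featureCounts. Versions were not given in the sources used here. The deposited values are raw counts per gene. The methods name the rat build mRatBN7.2, the processing notes name GRCh38 and hg38, and the largest gene end on chromosome 1 of the table was 282724300, so coordinates are printed as in the table. The table held 1 stray header line, which was left out, and its column names matched the sample titles. The stray line exchanges CEA EA replicates 2 and 3, and the first header was followed.

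Counts were tested with edgeR 4.0.16 (R 4.3.3) after filterByExpr and TMM, by glmQLFit and glmQLFTest, two-sided, with Benjamini-Hochberg adjustment over all genes tested and a threshold of 0.05. Pairwise fits used only the libraries compared, the region fit used all 24 libraries with treatment as a covariate, and DESeq2 1.42.0 was an alternative. Likeness between genes used log2 CPM with a prior count of 2, and the correlations with a permutation test used log2 CPM without one. Permutation tests of correlations used 1e+05 resamples and were two-sided (scipy 1.17.1). The group of each sample came from its title. The members, lists and tests were chosen with earlier results of these data known. The named genes were the 5 members, up to 3 genes per list with the smallest p between regions, and the 3 genes most like each member in the PVN.

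The methods say that the brain samples did not come from the same animal but from the same batch, and nothing gives which library came from which rat. They also name fewer rats than there are libraries, so the region fit may hold fewer animals than libraries. P-values measure the spread between these libraries. Deviations of libraries with the same replicate number were correlated over genes for 16 pairs of groups. Every correlation was over 0.1 in 2 of them, CEA HT with CEA NC (0.239, 0.18 and 0.294) and PVN NC with CEA NC (0.293, 0.13 and 0.196), so these numbers were taken to pair the libraries and the fits with a replicate block are given with the alternatives. On simulated counts with 200 genes changed 4-fold, the test recovered 94.0% in PVN HT against NC (16540 genes), 85.5% in CEA HT against NC (16187 genes), 88.0% between regions in NC (16545 genes) and 77.0% for the region difference in the HT effect (17149 genes). The changed genes were drawn at random above a minimum mean count, so these shares are not the power for a given member. In CEA HT against NC, Avp and Oxt had standard errors of 0.76 and 0.89, and Oxtr was not tested.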

Additional observations from a re-analysis of the deposited data

How the results depend on the processing

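The number of members called was the same under every alternative that was run, which were DESeq2, its size factors in edgeR, no filter on low counts, one fit over all 24 libraries for the treatment comparisons, the replicate block and each library left out. Between the regions 114 of 114 fits of Avp, Oxt and Avpr1a were called, and between treatments and in the interactions 0 of 585 were. With the replicate block, which matters for CEA HT against NC and for the regions in NC, Avp, Oxt and Avpr1a stayed called between regions and 0 members were called elsewhere. The Oxt difference between regions in NC was then -4.67 (edgeR adjusted p = 0.01056), and the block changed no call. On unscaled totals the mean level of Avpr1a in CEA HT was 0.915 in place of 0.986 CPM. Leaving out single libraries turned 32 uncalled log2 differences around, in 15 comparisons of a member, none between regions, and it moved the value by over 1.5 times in 32 of 38 treatment comparisons of a member. In the PVN these ran from -0.038 to 0.64 (Oxt) and -0.16 to 0.058 (Oxtr) for SEA against HT, and from -0.17 to 0.089 (Avp), -0.032 to 0.21 (Oxt) and -0.056 to 0.12 (Avpr1a) for EA against SEA. In the CEA they ran from -0.75 to 1.25 (Avp) and -1.24 to 1.11 (Oxt) for HT against NC, from -0.36 to 1.44 (Avp) for SEA against HT, from -0.21 to 0.97 (Avp) for EA against SEA and from -0.42 to 0.076 (Avpr1a) for the operated groups against NC. The region difference in the HT effect ran from -1.78 to 0.24 (Avp), -1.68 to 0.70 (Oxt) and -0.65 to 0.73 (Oxtr), and that in the EA effect from -1.14 to 0.28 (Avp) and -1.07 to 0.55 (Oxtr). CEA HT replicate 2, CEA NC replicate 1 and PVN HT replicate 3 gave several of these extremes, and a lone library's removal leaves a pair in its group. With 3 libraries per group, the CEA treatment comparisons had standard errors of 0.51 to 0.76 for Avp and 0.40 to 0.89 for Oxt. An Oxt log2 difference of 2.43 (EA against HT without CEA HT replicate 2) was still not called. Changes of Avp and Oxt in the CEA, large ones included, could thus go uncalled.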
